A study of Mus musculus with 22 samples.

Results

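Etv1, Etv4 and Etv5 make up the PEA3 group of ETS transcription factors, and their messages were followed in every hypothalamic cell type of mice that had fibroblast growth factor 1 (FGF1) injected once into a brain ventricle. The genes were taken by symbol, with earlier results of these data known, and are 3 of 20668 genes counted in single nuclei and 3 of 16304 counted in single whole cells. All 22 mice were male, leptin deficient (ob/ob) and 11 weeks old, so the vehicle mice carried the same mutation as the FGF1 mice. By the study's reporting summary, mice for nuclei came from Jackson Labs and mice for whole cells from Janvier Labs. FGF1 mice received 3 µg of FGF1 (recombinant human protein, per the methods). Vehicle mice received phosphate-buffered saline, per the methods, and were pair-fed to the intake of the FGF1 mice. Nuclei came from 3 FGF1 and 3 vehicle mice on Day 1 and from 2 FGF1 and 2 vehicle mice on Day 5, and whole cells on Day 5 from 12 other mice, 6 in each group. Each library came from the hypothalamus of 1 mouse, and the comparison asks whether and in which cells FGF1 moved the level of each factor. By the methods, nuclei came from a hypothalamic punch and whole cells from a triangular section of the mediobasal hypothalamus, so the tissue sampled differed.

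FGF1 binds FGF receptors, which switch on Ras and the kinases RAF, MEK and ERK. ERK relieves the repression of the PEA3 genes by Capicua (Cic), and Etv1, Etv4 and Etv5 are used widely as readouts of FGF signalling for that reason. The proteins are marked for degradation by the ubiquitin ligase COP1, for which Trib1 is an adaptor. All 3 genes are protein coding, and on GRCm38 Etv1 (ENSMUSG00000004151) lies at chr12:38779380-38870484 on the plus strand, Etv4 (ENSMUSG00000017724) at chr11:101769742-101785371 on the minus strand, and Etv5 (ENSMUSG00000013089) at chr16:22381309-22439719 on the minus strand.

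The stretches of 250 bases before an annotated start of Etv5 and of Etv1 are shown because Cic binds an octamer in DNA. They were taken from RefSeq (GRCm38.p6, Etv5 at chr16:22438369-22438618 on the minus strand and Etv1 at chr12:38779832-38780081 on the plus strand), are read 5′ to 3′ along the gene, and overlap no annotated exon. Capitals mark a Cic octamer on either strand.
Etv5: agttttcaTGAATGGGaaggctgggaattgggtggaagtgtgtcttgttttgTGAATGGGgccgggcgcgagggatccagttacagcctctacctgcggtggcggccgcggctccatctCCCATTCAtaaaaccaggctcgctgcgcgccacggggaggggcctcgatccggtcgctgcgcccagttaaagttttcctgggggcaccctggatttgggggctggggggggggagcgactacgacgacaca
Etv1: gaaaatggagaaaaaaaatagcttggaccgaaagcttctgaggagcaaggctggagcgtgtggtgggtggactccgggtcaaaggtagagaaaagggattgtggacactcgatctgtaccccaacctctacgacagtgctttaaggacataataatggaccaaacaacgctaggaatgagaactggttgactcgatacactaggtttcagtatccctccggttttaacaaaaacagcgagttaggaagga
The Etv5 window held the octamer TGAATGGG at 242 to 235 and at 198 to 191 bases before the start on the gene's own strand, and at 131 to 124 on the other strand. The Etv1 window held none of the 8 octamers searched (TGAATGAA, TGAATGAG, TGAATGGA, TGAATGGG, TCAATGAA, TCAATGAG, TCAATGGA and TCAATGGG). Any of these octamers was present in 5.86% of 32851 windows of the same length, TGAATGGG in 0.931% and 3 or more matches in 0.0578% (19 windows). The motifs CCGGAAGT of ETS factors, TGACTCA of AP-1, TGACGTCA of CREB and the GC box GGGCGG were in neither window, and in 2.88%, 4.46%, 1.55% and 32.7% of all windows. Both windows shown lie inside the gene spans given above. A second start of each gene lies in a window that overlaps an exon and is not shown. That of Etv5, at the 5′ end of the gene, held 3 GC boxes and no Cic octamer, and that of Etv1 held none of the motifs. The octamers were searched after the windows had been seen, and a match describes the letters only.

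Depth set how many members could be tested. Day 1 libraries held 3529889 to 12612245 unique molecular identifiers (UMIs) in FGF1 mice and 4103747 to 8407043 in vehicle mice, with median UMIs per nucleus of 2029 to 2816 and 3178.5 to 3776. Day 5 nuclei held 8893484 to 16345981 and 2721087 to 10471983 UMIs, and whole cells 3237337 to 11866269 and 2652897 to 10009893. A level is given in CPM, the UMI count scaled to a common library total, in the summed nuclei or cells of 1 type in 1 mouse. Levels of different genes are not compared. A gene was tested in a type with edgeR's quasi-likelihood test where its counts allowed, and was called at a false discovery rate (FDR) below 0.05 over all genes tested in that type.

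Whole-cell classes were named from markers and are called by the cell they resemble. Over the 9 classes that all 6 vehicle mice filled, ordered by the mean of log2(CPM + 1), Etv4 and Etv5 had their highest level in oligodendrocyte precursor cells (OPC), the glia that divide to replace oligodendrocytes, while Etv1 had its highest level in mature oligodendrocytes. Etv4 in OPC ranged from 85.5 to 135 CPM (mean 105 ± 21.7, SD, n = 6 mice), and in the next class, the astrocytes, from 5.59 to 17.9 CPM. Etv5 in OPC spread little, from 257 to 283 CPM (271 ± 9.57), against 83.8 ± 34.0 CPM in microglia and 64.5 ± 12.6 CPM in astrocytes. OPC lay above the next class in 6 of 6 mice for both genes. Etv5 went on with pericytes at 58.0 ± 34.3 CPM, tanycytes at 22.7 ± 3.07, endothelial cells at 20.0 ± 6.77 and oligodendrocytes at 19.9 ± 8.01. Macrophage-like cells, filled by only 4 vehicle mice and outside the order, had 77.1 to 380 CPM. Ependymal cells (12.0 ± 5.64 CPM) and committed oligodendrocyte precursors (12.4 ± 17.4 CPM) closed the order of Etv5.

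Etv1 in vehicle oligodendrocytes ranged from 379 to 606 CPM (457 ± 84.1), followed by pericytes at 238 ± 140 CPM, OPC at 186 ± 27.9 and microglia at 88 ± 18.8. Below these came endothelial cells (43.9 ± 12.8 CPM), astrocytes (42.2 ± 4.92), committed precursors (38.2 ± 16.3), tanycytes (27.9 ± 5.67) and ependymal cells (22.9 ± 10.2). Oligodendrocytes exceeded pericytes, OPC exceeded microglia and microglia exceeded endothelial cells in 6 of 6 mice. Etv4 outside OPC and astrocytes was near the floor, with medians of 0 to 3.28 CPM in every other class of the order except pericytes at 14.8 CPM. No neighbours in any order differed at an adjusted p below 0.05 in an exact two-sided sign-flip permutation test over the 6 mice, whose smallest p is 0.03125, and the lowest adjusted values were 0.0833 for Etv1 and 0.25 for Etv4 and Etv5. Within the oligodendrocyte lineage, then, Etv4 and Etv5 stood high in OPC and low in committed precursors and oligodendrocytes, while Etv1 was high at both ends of the lineage and low between them.

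**Figure D1:**
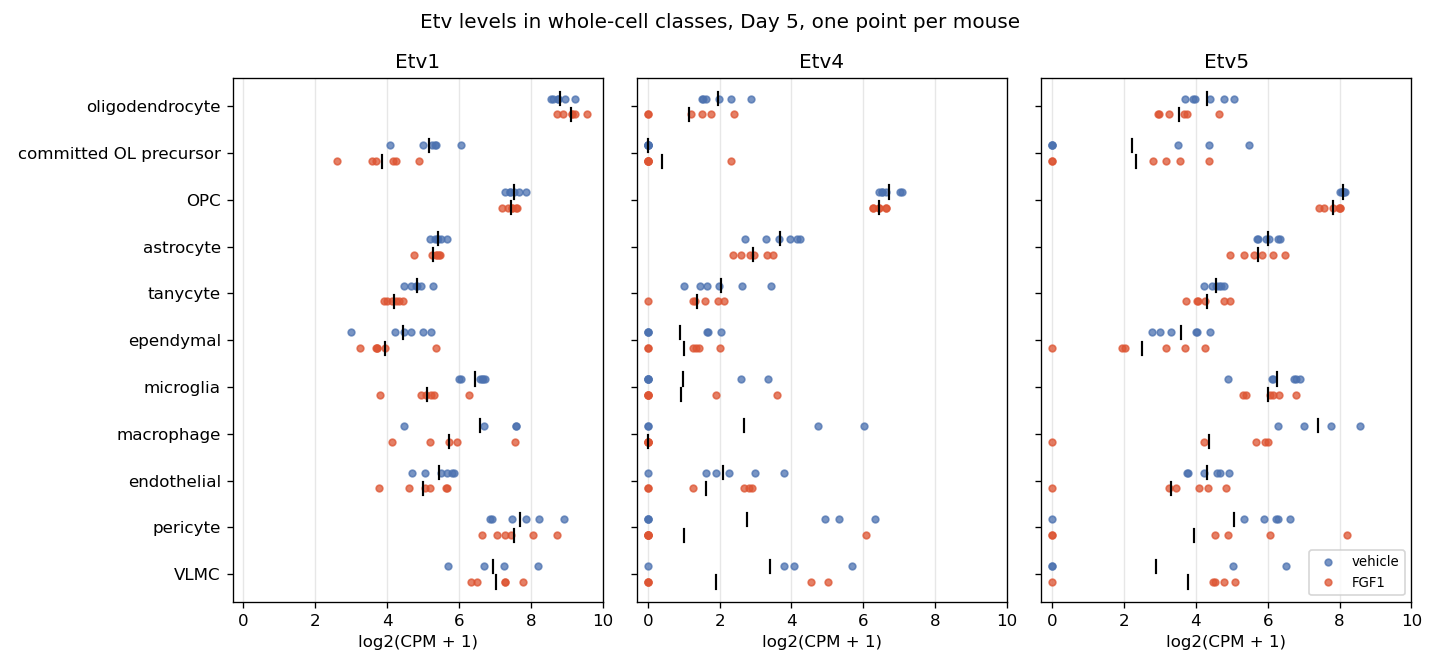
Level of Etv1, Etv4 and Etv5 as log2(CPM + 1) in the 11 classes of whole cells on Day 5, with 1 point per mouse, vehicle in blue, FGF1 in orange and a black line at the mean. Etv4 and Etv5 were highest in OPC (vehicle means 105 and 271 CPM) and Etv1 in oligodendrocytes (457 CPM).

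Over the 11 classes, genes whose vehicle levels were most like those of Etv1 included Epb41l3 (Pearson r = 0.893), Adam19 (0.890), Stmn4 (0.888) and Mobp (0.819), the last a myelin gene. For Etv4 they were Ppp1r14b (0.896), Tnpo1 (0.891), Dclk2 (0.886), Stmn3 (0.885) and Cspg5 (0.878), and for Etv5 Rph3a (0.932), Resp18 (0.902), Frrs1 (0.890), Pvrl4 (0.889) and Kcnip3 (0.888). Etv4 and Etv5 were closer to each other (0.663) than either was to Etv1 (0.413 and 0.292). These values describe 11 points from the same 6 libraries over 13936 genes and carry no test.

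On Day 1, Etv5 was higher after FGF1 in 1 neuron type, n29.Nr5a1/Adcyap1, at a mean of 62.5 ± 8.65 CPM against 10.6 ± 3.87 CPM (SD, n = 3 mice each). Nr5a1, which encodes the factor SF-1 of ventromedial hypothalamic neurons, was at 25.8 CPM there and at 4.56 CPM in the next type, so the first gene of the label marked these nuclei, whereas Adcyap1 was highest in another type, Glu5, at 50.5 CPM. Etv5 was at 70.3, 53.2 and 63.8 CPM in FGF1 mice 1, 2 and 3 (77, 35 and 17 UMIs) and at 13, 6.11 and 12.6 CPM in vehicle mice 1, 2 and 3 (7, 4 and 4 UMIs). All FGF1 mice lay far above all vehicle mice, and FGF1 mice lay above without overlap for 7.45% of all genes tested in n29. The log2 fold change was 2.61 ± 0.403 (SE, edgeR FDR = 0.0243), and Etv5 ranked 5 of 8407 genes by p. In n29, 10 genes (0.119%) were called. The call rested on all 3 vehicle mice, since without vehicle mouse 1, 2 or 3 the FDR was 0.264, 0.0665 and 0.120 at log2 fold changes of 2.84, 2.27 and 2.73, and with batch as a term it was 0.132. Within the 3 batches, each of 1 FGF1 and 1 vehicle mouse, the log2 difference ran from 1.95 to 3.19. DESeq2 gave an adjusted p of 0.00631.

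Etv4 in n29 was at 25.6, 21.3 and 11.3 CPM in FGF1 mice and at 5.58, 1.53 and 3.15 CPM in vehicle mice. The groups did not overlap, but with 45 and 5 UMIs the gene did not pass the count filter, and without the filter its log2 fold change was 2.60 (FDR = 0.0254). Etv1 did not follow, at 7.31, 1.52 and 0 CPM in FGF1 mice against 9.30, 21.4 and 3.15 CPM in vehicle mice, where the groups overlapped. At an equal depth of 1350 UMIs per nucleus, 7.35% of FGF1 nuclei of n29 had an Etv5 UMI (4.48% to 8.45% by mouse) against 2.15% of vehicle nuclei (1.07% to 4.60%), so that by share the lowest FGF1 mouse lay below the highest vehicle mouse and the groups overlapped. For Etv4 the equal-depth shares were 2.19% and 0.718%. Beside these values, the 7 oligodendrocyte markers in n29 summed to 45.9 to 56.6 CPM in FGF1 and 67.0 to 142 CPM in vehicle mice, all 7 lower in the FGF1 mean, and the 7 ependymal markers to 139 to 223 and 251 to 290 CPM, also all lower. Astrocyte markers (113 to 118 and 75.4 to 166 CPM) and OPC markers (1020 to 1307 and 899 to 1239 CPM) overlapped. The part of other cells in the Etv values was not tested. The 4 neuron markers summed to 15680 to 17813 CPM and 15661 to 19782 CPM.

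In glia on Day 1 no member was called, and the order of the groups varied by type. In nuclei annotated as astrocytes, Etv4 was at 69.6, 45.3 and 73.5 CPM in FGF1 mice and at 25.4, 7.74 and 0 CPM in vehicle mice. All FGF1 mice were above all vehicle mice, as for 8.91% of all genes tested there, and the log2 fold change was 2.50 ± 0.66 (edgeR FDR = 0.111, and 0.0106 without the count filter). Etv5 in the same nuclei was at 75.1, 47.9 and 66.8 CPM against 30.5, 31.0 and 13.1 CPM, again without overlap (log2 fold change 1.26 ± 0.442, FDR = 0.290). Etv1 stayed within its spread, at 33.7, 37.3 and 33.4 CPM against 71.2, 17.4 and 19.6 CPM. At equal depth, 7.78% of FGF1 astrocyte nuclei (5.31% to 11.5% by mouse) and 0.800% of vehicle nuclei (at most 1.75% in a mouse) had an Etv4 UMI. In astrocyte nuclei all 7 oligodendrocyte markers were lower in the FGF1 mean (123 to 364 CPM summed, against 445 to 1128), as were all 7 ependymal markers (34.3 to 54.7 against 92.9 to 142) and all 4 neuron markers (1675 to 5273 against 4107 to 5942), and OPC markers overlapped (183 to 553 and 294 to 636 CPM). Committed precursor markers summed higher without overlap (339 to 444 against 270 to 278 CPM), with 4 of 7 higher and 3 lower in the FGF1 mean. Smooth muscle markers did so too (48.6 to 52.7 against 9.95 to 13.7 CPM, 3 of 4 higher). The part of these cells in the Etv values was not tested.

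Tanycytes, the radial glia that line the floor of the third ventricle, had 25 Etv4 UMIs in FGF1 mice and 1 in vehicle mice. By mouse Etv4 was at 52.9, 58.7 and 67.0 CPM against 9.04, 0 and 0 CPM. The groups did not overlap, as for 14.6% of all genes tested in tanycytes. The gene was too sparse for the count filter, and without it the log2 fold change was 3.68 (FDR = 0.0237). Etv5 in tanycytes was at 49.1, 67.0 and 50.2 CPM against 36.1, 9.36 and 53.8 CPM, where 1 vehicle mouse lay above 2 of the FGF1 mice. All 7 ependymal markers were lower in FGF1 tanycyte nuclei (47.7 to 88.2 CPM summed, against 575 to 713), as were 7 of 9 tanycyte markers (1609 to 3768 against 3014 to 3905). Oligodendrocyte sums (118 to 213 against 222 to 350 CPM, 5 of 7 lower) and OPC sums (299 to 315 against 378 to 603 CPM, 3 of 6 lower) were lower too. Astrocyte sums overlapped (1713 to 2374 and 2139 to 3154 CPM), and smooth muscle sums were higher (19.9 to 42.6 against 0 to 14.3 CPM). The part of these cells in the Etv4 and Etv5 values was not tested. In oligodendrocyte nuclei, Etv5 was at 21.8, 26.5 and 27.2 CPM against 8.84, 13.1 and 0 CPM and Etv4 at 9.70, 22.1 and 10.9 CPM against 5.90, 3.28 and 0 CPM, both untested and without overlap. Nuclei annotated as COP held OPC as well as committed oligodendrocyte precursors, so their levels are not those of committed precursors alone. In these nuclei Etv4 was at 96.8, 34.8 and 16.3 CPM against 33.1, 39.2 and 49.2 CPM and the groups overlapped. Etv5 in COP nuclei overlapped too, at 42.3 to 86.9 CPM (59.4 ± 24.1) against 28.0 to 66.2 CPM (46.0 ± 19.2). In ependymal nuclei Etv4 was at 34.2 to 89.4 CPM on 6 UMIs against 0 to 29.6 CPM on 2, without overlap, and Etv5 at 47.5 to 179 CPM against 31.1 to 88.9 CPM, with overlap. In microglia nuclei both genes were too sparse to test. Etv4 there was at 12.9 to 20.4 CPM on 8 UMIs against 0 to 11.8 CPM on 2, without overlap. Etv5 was at 28.5 ± 4.90 CPM against 32.4 ± 2.80 CPM (13 and 12 UMIs), where the groups overlapped. It was lower in the FGF1 mouse of 3 of 3 batches, by log2 differences of only -0.295 to -0.0563.

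Over all neurons, Etv4 and Etv5 were also higher in each FGF1 mouse. Etv5 in the sum of 28 neuron types was at 31.9, 25.4 and 34.3 CPM in FGF1 mice and at 15.3, 8.49 and 13.1 CPM in vehicle mice (log2 fold change 1.32 ± 0.277, edgeR FDR = 0.302, DESeq2 adjusted p = 0.0247). Etv4 was at 14.4, 12.9 and 9.33 CPM against 4.01, 4.24 and 4.78 CPM (1.51 ± 0.301, FDR = 0.294). Etv1 was lower in 2 of 3 batches, at 16.3, 13.4 and 9.70 CPM against 12.3, 17.6 and 17.5 CPM (-0.25 ± 0.282, FDR = 0.847). For Etv4 and Etv5 the groups did not overlap, as for 6.94% of all genes. Of 14933 genes, edgeR called 0 (0.0%) in this sum, with Etv4 and Etv5 at unadjusted p of 0.000879 and 0.00123. In a sum, more cells of a type and more RNA per cell cannot be told apart. In the same sum all 7 oligodendrocyte markers were lower in the FGF1 mean (53.2 to 65.1 CPM summed, against 111 to 126), as were all 7 ependymal markers (49.7 to 77.7 against 107 to 125) and 7 of 9 tanycyte markers (384 to 495 against 429 to 533), while OPC markers overlapped (743 to 905 and 607 to 854 CPM). Their part in the Etv values was not tested.

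Other neuron types were thinner. In Glu5, Etv5 had 24 UMIs in the FGF1 mice (15.1, 29.1 and 19.0 CPM, 479 nuclei) and 0 in the vehicle mice (104 nuclei). With the vehicle group set to a floor of 3 counts, it was 2.48-fold higher. In Glu6 it had 25 UMIs in 3 FGF1 mice (84.1, 75.3 and 98 CPM, 161 nuclei) and 0 in 2 vehicle mice (40 nuclei), 2.76-fold higher by the same floor. These folds allow for counting error of the vehicle zero only, take the FGF1 counts as they stand, and leave out the spread over mice. In Glu5, 6 of 7 ependymal markers (26.4 to 51.3 CPM summed, against 74.7 to 109), 5 of 7 oligodendrocyte markers (36.6 to 90.9 against 68.8 to 174) and 6 of 8 astrocyte markers (54.2 to 168 against 74.6 to 249) were lower in the FGF1 mean. In Glu6, 4 of 7 oligodendrocyte markers were lower (33.3 to 45.5 against 63.2 to 82.7 CPM) and 6 of 6 OPC markers higher (806 to 1466 against 772 to 859 CPM), and the part of these cells in the Etv5 values was not tested. In n23.Sst/Unc13c, whose label names the peptide somatostatin, Etv4 was at 24.9 to 54.4 CPM (9 UMIs) against 0 to 20.5 CPM (1 UMI) and Etv5 at 49.9 to 120 CPM (18 UMIs) against 19.1 to 41 CPM (4 UMIs), both without overlap. Not every type had higher values after FGF1. In n02.Gm8773/Tac1, filled by 2 mice in each group, Etv4 was at 0 and 23.4 CPM (1 UMI) in FGF1 mice and at 54.1 and 65.6 CPM (6 UMIs) in vehicle mice. In n13.Agrp/Gm8773, whose label names the gene of the feeding peptide AgRP, Etv4 was at 0 to 73.2 CPM against 26.4 to 34.6 CPM and Etv5 at 32.5 to 71.1 CPM against 0 to 57.1 CPM. Both overlapped there, and both were lower in the FGF1 mouse of 2 of 3 batches, whereas Etv1 was higher in 3 of 3, at 14 to 35.5 CPM (4 UMIs) against 0 to 13.2 CPM (1 UMI). Etv1 also lay above without overlap in Glu4, at 33.0 to 75 CPM in 3 FGF1 mice against 0 and 20.5 CPM in 2 vehicle mice, and in vascular leptomeningeal nuclei (VLMC), at 209 and 224 CPM in 2 FGF1 mice against 48.3 to 119 CPM in 3 vehicle mice. In the largest group, the neurons that the annotation left unmapped, Etv4 was at 13.6, 12.6 and 6.97 CPM against 2.08, 3.89 and 5.11 CPM (log2 fold change 1.63 ± 0.431, FDR = 0.579), and Etv5 at 26.7, 19.6 and 34.9 CPM against 14.2, 9.48 and 14.8 CPM (1.08 ± 0.309, FDR = 0.604).

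In all, 18 types gave 54 pairs of member and type on Day 1, of which 8 passed the count filter, and 1 of the 8 was called, beside 1.05% of all genes tested in these types. Of the 8, 5 were at an unadjusted p below 0.05, and in 5 every FGF1 mouse was above every vehicle mouse, beside 7.97% of all genes tested. These 5 were Etv4 in astrocytes and unmapped neurons and Etv5 in astrocytes, unmapped neurons and n29. The count filter can be met by the counts of 1 group alone. Vehicle counts were low for Etv4 in astrocytes (92 UMIs in FGF1 and 9 in vehicle mice) and Etv5 in n29 (129 and 15). The order of the groups among the 8 is therefore a description and not support for a rise. Over all 54 pairs, most of them too sparse to test, FGF1 mice lay above without overlap in 18 (3 of Etv1, 8 of Etv4 and 7 of Etv5). They lay below in 1, Etv4 in n02. Over the 18 types together, 7.97% of all genes tested lay above and 7.82% below. These shares cover tested genes only, and groups of 2 mice, as in n02, separate more readily than groups of 3. None of the 3 tested pairs of Etv1 was called, and their log2 fold changes ran from -0.30 to 0.50. DESeq2 called 1 pair of the 43 to which it gave an adjusted p, and without the count filter edgeR called 4 of 54. The shares of all genes called under these settings are not given here, so these counts cannot be set beside a background.

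**Figure D2:**
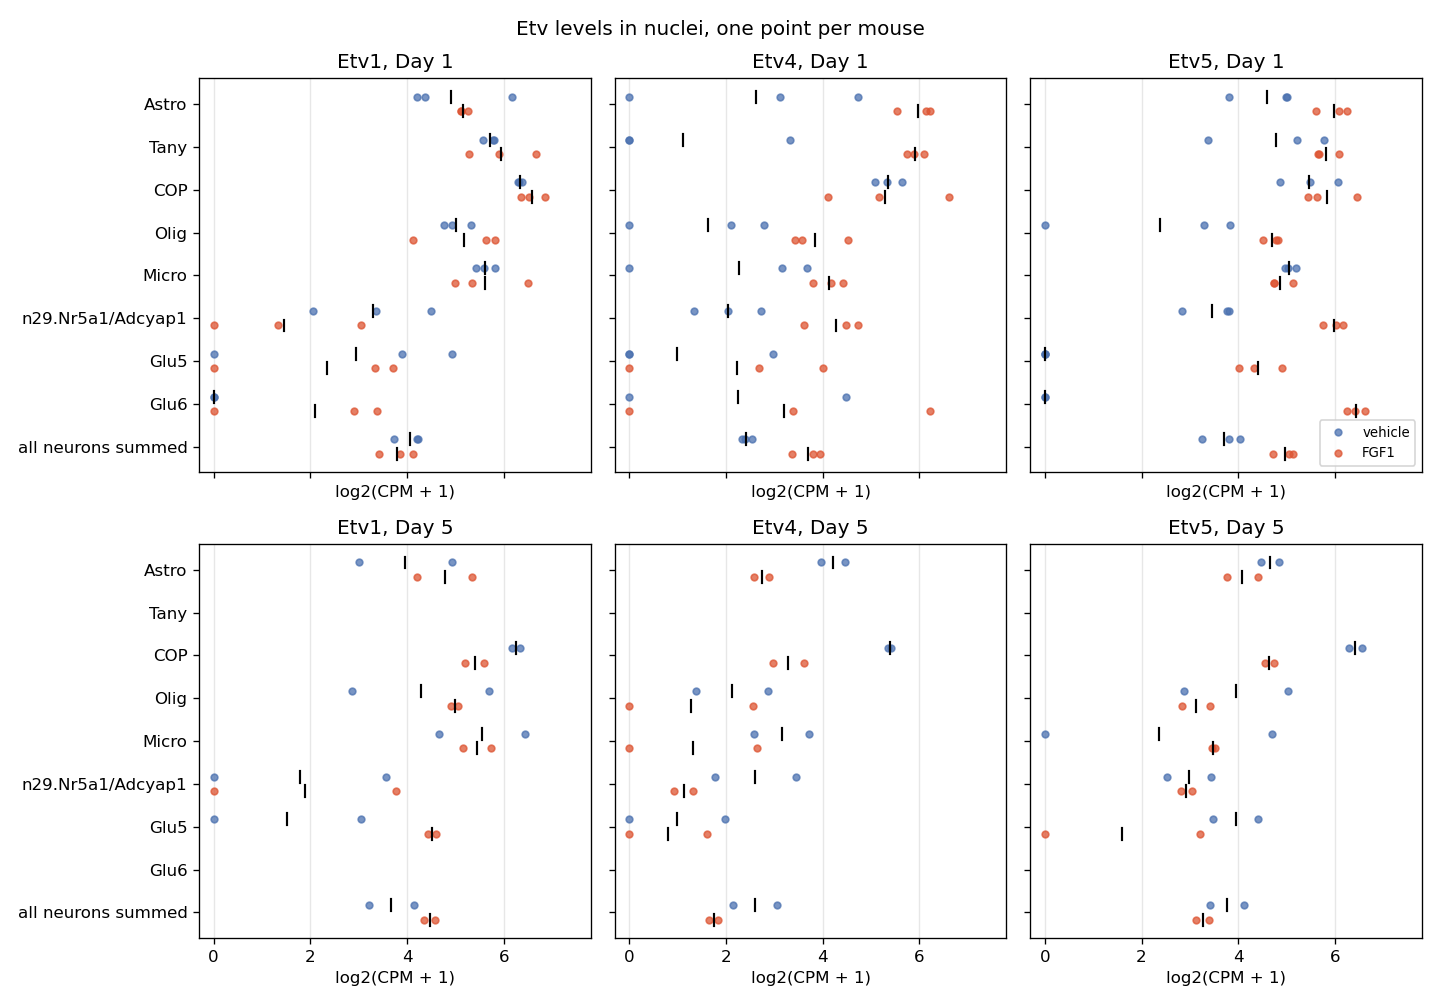
Level of each gene as log2(CPM + 1) in nuclei on Day 1 (top) and Day 5 (bottom), with 1 point per mouse, vehicle in blue, FGF1 in orange and a black line at the mean. On Day 1 Etv4 in astrocytes and Etv5 in n29 were separated by treatment (FGF1 means 62.8 and 62.5 CPM, vehicle means 11.1 and 10.6 CPM), and on Day 5 the FGF1 and vehicle means were 5.72 and 17.9 CPM for Etv4 in astrocytes and 6.61 and 7.35 CPM for Etv5 in n29.

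Other genes of the pathway were read from lists. Of the feedback inhibitors of ERK, which FGF signalling itself induces, 3 of 12 could be tested in astrocytes on Day 1 and all 3 had positive log2 fold changes (median 1.3, against -0.01 over all genes), of which Spry2 was called (2.17 ± 0.453, edgeR FDR = 0.0386), beside 1.55% of all genes tested in astrocytes. In tanycytes 2 of 3 tested were called, Spry2 (2.25) and Spred2 (1.85), beside 9.14% of all genes tested in tanycytes. Trib1, the adaptor of COP1, was called in both, at log2 fold changes of 5.18 in astrocytes (FDR = 0.00285) and 5.35 in tanycytes (FDR = 0.00161). Immediate early genes, which ERK switches on within minutes, were called in astrocytes in 3 of 4 tested (Jun 5.01, Egr1 4.46 and Fos 2.41) and in tanycytes in 2 of 2 (Jun 4.54 and Egr1 3.56). The ligand gene Fgf2 was called in astrocytes (2.52, FDR = 0.0194). FGF receptors and the Ras-ERK core had no call in either type, in 5 and 12 tested genes of astrocytes and 4 and 8 of tanycytes. In n29, where Etv5 was called, none of the 3 tested feedback inhibitors was, with a median of 1.47 against 0.01 over all genes. In all neurons summed 7 of 8 were positive, beside 51.3% of all genes tested, with a median of 1.41 and none called. The count filter can be met by the counts of 1 group alone. Mean Trib1 in astrocytes, for one, was 208 CPM in FGF1 and 4.28 CPM in vehicle mice. The signs, medians and shares called among the tested genes of these lists are therefore a description and not support for a rise.

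On Day 5 Etv5 in n29 was too sparse to test, with 12 UMIs in FGF1 mice and 7 in vehicle mice, and its values showed no rise. Etv5 there was at 6.01 and 7.20 CPM in FGF1 mice 37 and 45 and at 4.79 and 9.90 CPM in vehicle mice 28 and 38, with the FGF1 mice between the vehicle mice. Etv4 in n29 was at 1.5 and 0.9 CPM against 2.40 and 9.90 CPM. In astrocytes Etv4 was at 5.01 and 6.43 CPM against 14.6 and 21.2 CPM and Etv5 at 12.5 and 20.4 CPM against 27.7 and 21.2 CPM. Both lay lower in the FGF1 mice, the reverse of Day 1, with Etv5 at a log2 fold change of -0.56 ± 0.517 (edgeR FDR = 0.684) and Etv4 too sparse to test. Astrocyte markers summed to 6271 and 8187 CPM in FGF1 mice and 4335 and 4526 CPM in vehicle mice. Committed precursor markers summed higher too (497 and 528 against 298 and 387 CPM, 5 of 7 higher). Tanycyte markers summed lower (241 and 309 against 360 and 462 CPM), though 5 of 9 were higher in the FGF1 mean. The part of these shifts in the Etv values of astrocyte nuclei was not tested. In all neurons, Etv4 was at 2.59 and 2.15 CPM against 3.41 and 7.32 CPM (-1.03 ± 0.486, FDR = 0.497) and Etv5 at 7.77 and 9.51 CPM against 9.74 and 16.5 CPM (-0.52 ± 0.332, FDR = 0.577). Etv1 went the other way, at 19.5 and 22.8 CPM against 16.7 and 8.24 CPM (0.66 ± 0.306, FDR = 0.497).

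Of the 11 pairs tested on Day 5, Etv5 and Etv4 in COP nuclei had the lowest unadjusted p (0.00188 and 0.00512). Etv5 was at 22.3 and 25.5 CPM in FGF1 mice and at 77.2 and 93.1 CPM in vehicle mice (-1.75 ± 0.506, edgeR FDR = 0.0985), and Etv4 at 11.2 and 6.81 CPM against 41.6 and 39.9 CPM (-2.21 ± 0.723, FDR = 0.182). Etv1 was at 47.4 and 35.7 CPM against 71.3 and 79.8 CPM (-0.86 ± 0.471, FDR = 0.569). All 3 members lay lower in both FGF1 mice, and none was called. The make-up of these nuclei moved as well, with 6 of 6 OPC markers lower in FGF1 mice (1227 and 1888 CPM summed, against 2362 and 2650) and 6 of 7 COP markers higher (2387 and 3059 CPM against 623 and 671). Oligodendrocyte markers were also higher in 6 of 7 (1134 and 1688 CPM against 120 and 471). The part of this shift in the Etv values was not tested.

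Of 33 pairs of member and type on Day 5, in 11 types, 11 passed the filter and none was called by edgeR, beside 0.288% of all genes tested, with 3 at an unadjusted p below 0.05 and none called by DESeq2 or without the filter. The FGF1 mice were all below the vehicle mice in 5 of the 11 and all above in 2, beside 19.0% and 19.9% of all genes tested. The 2 pairs above were both Etv1, in unmapped neurons and in Glu5, where it was at 23.1 and 20.5 CPM against 7.30 and 0 CPM (1.63 ± 0.70, FDR = 0.801). An interaction term asked whether FGF1 acted differently on the 2 days, and no member was called in any type. The Day 1 effect exceeded the Day 5 effect by 3.93 ± 1.02 on the log2 scale for Etv4 in astrocytes (edgeR FDR = 0.359), by 2.53 ± 0.805 for Etv5 in n29 (FDR = 0.735) and by 2.25 ± 0.718 for Etv5 in COP (FDR = 0.418).

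**Figure D3:**
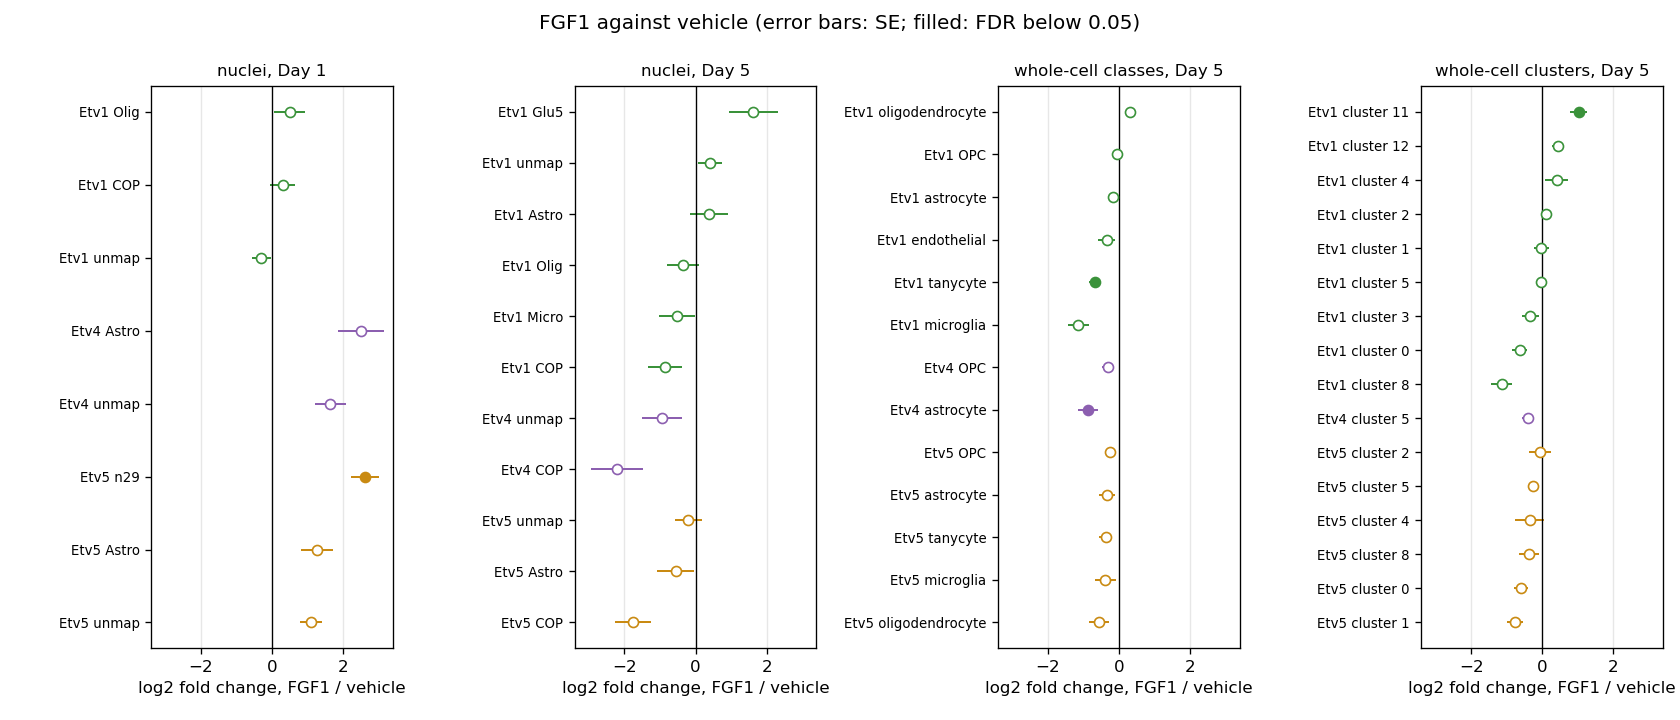
Log2 fold change of FGF1 over vehicle for each member and type that passed the count filter, with SE as error bars and filled points at an FDR below 0.05, in nuclei on Day 1 and Day 5 and in classes and clusters of whole cells on Day 5. Of the Day 1 points, 7 of 8 lay above 0, beside 51.1% of all genes tested. Below 0 lay 8 of 11 in Day 5 nuclei (49.7% of all genes tested), 12 of 13 in whole-cell classes (50.7%) and 12 of 16 in clusters (50.2%). Nuclei and whole cells differ in mice, preparation and cell types, so these signs are values side by side. The count filter can be met by the counts of 1 group alone.

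In whole cells on Day 5, 2 pairs of member and class were called, both lower in FGF1 mice. Of 33 pairs of member and class, 13 passed the filter, 12 of them with a negative log2 fold change (median -0.34), as had 50.7% of all genes tested, and the 2 were called beside 4.18% of all genes tested called and 2.11% called lower. The calls were Etv1 in tanycyte-like cells and Etv4 in astrocyte-like cells. The 13 pairs share mice and were not tested as a group, and in clusters 12 of 16 tested pairs were negative. DESeq2 called only the first.

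Etv1 in tanycyte-like cells ran from 14.2 to 21.0 CPM in FGF1 mice (median 17.4) and from 21.1 to 37.8 CPM in vehicle mice (median 27.2). No FGF1 mouse reached the lowest vehicle mouse, though the gap was small, and means were 17.3 ± 2.54 and 27.9 ± 5.67 CPM (SD, n = 6). The log2 fold change was -0.66 ± 0.163 (SE, edgeR FDR = 0.0177), among 5.08% of 10494 genes called in the class. FGF1 was lower within 6 of 6 batches, by -0.82 to -0.47. The FDR was 0.0552, 0.0512 and 0.0593 without vehicle mouse 29, vehicle mouse 20 and FGF1 mouse 10. Cluster 7 held 29.6% of the FGF1 and 11.3% of the vehicle cells of this class, and in cluster 0, the largest, Etv1 was at 12.7 to 22.8 CPM (median 16.6) against 18.0 to 37.3 (27.4), a log2 fold change of -0.64 ± 0.205 (FDR = 0.0628). Etv5 in cluster 0 went along, at 11.2 to 27.0 CPM (16.8) against 21.3 to 31.7 (25.3), a log2 fold change of -0.60 ± 0.203 (FDR = 0.0765). The receptor gene Fgfr3 was called lower in these cells too (-0.68 ± 0.158, FDR = 0.0148), as 1 of 6 tested receptors and co-receptors, and the neuron marker Syt1 was also called lower (-0.93), with neuron markers summing to 1136 to 3022 CPM in FGF1 mice and 1227 to 1966 CPM in vehicle mice. Astrocyte markers were lower in 6 of 8 (1827 to 2119 CPM summed, median 1988, against 2024 to 3240, median 2565), pericyte markers in 6 of 6 (median 28.4 against 38.0 CPM) and oligodendrocyte markers in 4 of 7 (median 452 against 600 CPM), and their part in the Etv1 value was not tested.

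Etv4 in astrocyte-like cells ran from 4.23 to 10.1 CPM in FGF1 mice (median 6.46, 46 UMIs in all) and from 5.59 to 17.9 CPM in vehicle mice (median 13, 125 UMIs). The groups overlapped in their middle, with means of 6.89 ± 2.26 and 12.5 ± 4.81 CPM and a log2 fold change of -0.87 ± 0.282 (edgeR FDR = 0.0392), among 12.6% of 9830 genes called in the class. The call was the weaker of the 2. The DESeq2 adjusted p was 0.109, the FDR without cells of over 20% mitochondrial or ribosomal UMIs was 0.0588, and it was 0.0824, 0.0930, 0.0634, 0.0715 and 0.117 without vehicle mouse 29 and FGF1 mice 7, 28, 21 and 10. Without vehicle mouse 20, 22 or 25 or FGF1 mouse 36 the gene did not pass the filter. Cluster 4 held 69.0% of the FGF1 and 8.07% of the vehicle cells of this class, and cluster 1 the rest, and in neither cluster did Etv4 pass the filter (16 and 114 UMIs in cluster 1, 30 and 11 in cluster 4).

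Beside Etv4, astrocyte-like cells had less Dusp6, an ERK phosphatase that ERK induces (-1.30 ± 0.169, FDR = 6.59e-06), and less Trib1 (-1.0 ± 0.207, FDR = 0.00195), but more Fgf2 (1.16 ± 0.25, FDR = 0.00254). Of 7 feedback inhibitors tested only Dusp6 was called. Immediate early genes were called lower in 5 of 7 tested, with Ier2 at -1.84, Junb at -1.59, Fos at -1.49 and Fosb at -1.43. Mean Fos in vehicle mice was 1561 CPM here and 21.8 CPM in astrocyte nuclei of Day 1. By the methods, whole cells were freed from fresh tissue with enzymes, and nuclei came from frozen tissue. The part of that step in the immediate early genes was not tested. Neuron markers were called lower in 3 of 4 (Rbfox3 -1.43, Syt1 -1.32 and Snap25 -1.25), summing to 147 to 314 CPM in FGF1 mice (median 181) and 259 to 500 CPM in vehicle mice (median 332), and the part of that in the Etv4 value was not tested. OPC markers, whose cells hold the most Etv4, summed to 46.8 to 97.2 CPM in FGF1 and 53.8 to 77.1 CPM in vehicle mice. Tanycyte markers, 6 of 9 higher, summed to 134 to 327 CPM against 100 to 132 CPM, ependymal markers to 48.5 to 76.0 against 29.1 to 43.4 CPM and microglia markers to 35.1 to 81.0 against 75.6 to 96.9 CPM, and their part was not tested either. Etv5 in astrocyte-like cells spread widely, from 30.0 to 88.7 CPM (median 51.8) against 50.6 to 80.4 CPM (63.2), at a log2 fold change of -0.33 ± 0.222 (FDR = 0.366). In cluster 1 Etv5 was at 37.3 ± 25.2 CPM (69 UMIs) against 65.4 ± 11.7 CPM (571 UMIs), lower in 5 of 6 batches and ranked 82 of 7679 genes (-0.76 ± 0.225, FDR = 0.134, and 0.0278 with batch as a term), and in cluster 4 at 63.2 ± 28.3 against 74.9 ± 38.1 CPM (-0.35 ± 0.404, FDR = 0.887). Etv1 was at 38.3 ± 6.49 CPM against 42.2 ± 4.92 CPM (-0.15 ± 0.147, FDR = 0.545). The immediate early genes had the other sign in OPC, where 2 of 6 tested were called, both higher (Egr1 1.09, FDR = 0.0212, and Fos 0.52, FDR = 0.0179), beside 3.24% of all genes tested there.

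OPC, where Etv4 and Etv5 are highest, had values on the same side without a call. Etv5 ran from 171 to 259 CPM in FGF1 mice (median 239) and from 257 to 283 CPM in vehicle mice (median 270), with 4 FGF1 mice below every vehicle mouse and the other 2 within reach of the lowest. The log2 fold change was -0.26 ± 0.123 (edgeR FDR = 0.252). Etv4 ran from 75.5 to 98.1 CPM (85.7) against 85.5 to 135 CPM (95.1), at -0.31 ± 0.164 (FDR = 0.322), and Etv1 from 146 to 196 CPM (176) against 154 to 233 CPM (178), at -0.06 ± 0.134 (FDR = 0.865). Cluster 17 held 7.02% of the FGF1 and 0.449% of the vehicle OPC. In cluster 5, which held the others, Etv4 was lower in 6 of 6 batches at a log2 fold change of -0.39 ± 0.17 (unadjusted p = 0.0272, edgeR FDR = 0.232), and Etv5 in 5 of 6 at -0.25 ± 0.124 (FDR = 0.316). All 4 neuron markers were lower in FGF1 OPC (748 to 946 CPM summed, against 1018 to 1137), of which Snap25 was called (-0.70, FDR = 0.00994). Committed precursor markers summed to 1263 to 1468 CPM (median 1331) against 1454 to 1742 (1558), with 4 of 7 higher and 3 lower in the FGF1 mean. Endothelial markers were higher in 6 of 6 (median 73.2 against 69.7 CPM summed). The part of these cells in the Etv values of OPC was not tested. Thinned to 750 UMIs per cell, 12.3% ± 2.46 of FGF1 OPC and 17.2% ± 1.70 of vehicle OPC had an Etv5 UMI (exact two-sided permutation p = 0.00216, the smallest that 6 against 6 mice allow, and 0.0714 adjusted over 33 shares). Without thinning the shares were 24.7% ± 7.39 and 27.9% ± 4.98 (exact permutation p = 0.400). In the committed precursors, a class with a low Etv5 share, it was 0.485% ± 0.660 and 1.05% ± 1.80. Median depths were 1152.5 and 1193.5 UMIs per OPC and 1843.5 and 1984 per committed precursor.

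Etv1 in oligodendrocyte-like cells was the 1 of 13 tested pairs with a positive log2 fold change. It ran from 427 to 764 CPM in FGF1 mice (median 572) and from 379 to 606 CPM in vehicle mice (median 434), at a log2 fold change of 0.32 ± 0.136 (edgeR FDR = 0.205). The class had changed its make-up, and cluster 11, led by the myelin genes Mal, Mog, Cldn11 and Opalin, held 37.5% of the FGF1 and 2.47% of the vehicle cells. Within cluster 11 Etv1 was called higher. It ran from 506 to 975 CPM in FGF1 mice (median 691) and from 182 to 700 CPM in vehicle mice (median 287), and 5 of the 6 vehicle mice lay below every FGF1 mouse. Means were 713 ± 169 and 354 ± 190 CPM, on 1627 and 99 UMIs, and the log2 fold change was 1.03 ± 0.244 (FDR = 0.0132), among 6.63% of genes called in the cluster. It was higher in 6 of 6 batches, by 0.47 to 1.87, and the FDR was 0.0553 without vehicle mouse 25. Oligodendrocyte markers in cluster 11 summed to 61273 to 72898 CPM in FGF1 and 62563 to 85849 CPM in vehicle mice. In the whole class 6 of 7 were higher, without overlap in their sum (41115 to 62859 against 29328 to 37589 CPM), while 6 of 8 astrocyte markers (871 to 1792 against 1164 to 2391 CPM) and 4 of 4 neuron markers (130 to 330 against 245 to 444 CPM) were lower. Their part in the Etv1 and Etv5 values was not tested.

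In cluster 2, which held 55.6% of the FGF1 and 83.4% of the vehicle oligodendrocyte-like cells, Etv1 barely moved, from 464 to 589 CPM (median 503) against 396 to 641 CPM (475), a log2 fold change of 0.10 ± 0.124 (FDR = 0.851). In cluster 12 it was at 528 to 853 CPM in 4 FGF1 mice and 382 to 575 CPM in 6 vehicle mice (0.44 ± 0.175, FDR = 0.278). Etv5 in the whole class was at 6.63 to 24.1 CPM (10.1) against 11.9 to 32.3 CPM (17.3), on the other side from Etv1 (-0.56 ± 0.283, FDR = 0.301). Of the 48 pairs of member and cluster, 16 passed the filter, and Etv1 in cluster 11 was the only call, by edgeR and by DESeq2, beside 1.75% of all genes tested called and 0.854% called higher, with 7 of the 16 at an unadjusted p below 0.05.

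**Figure D4:**
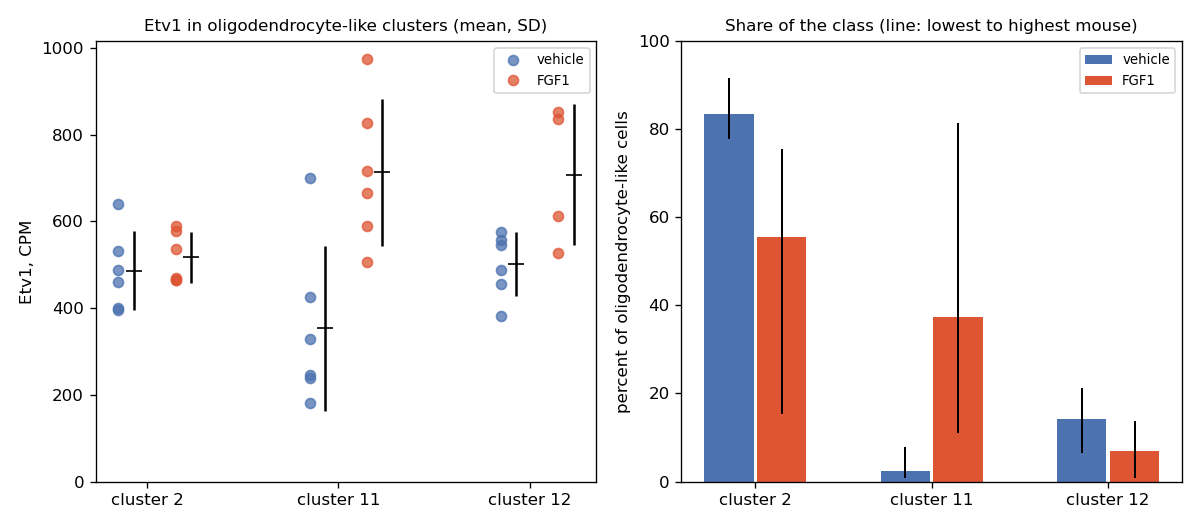
Left, Etv1 in CPM in the 3 oligodendrocyte-like clusters, with 1 point per mouse and the mean and SD in black. Right, the percent of oligodendrocyte-like cells in each cluster, with a line from the lowest to the highest mouse. Etv1 in cluster 11 was at 713 CPM in FGF1 mice and 354 CPM in vehicle mice, a cluster with 37.5% of the FGF1 cells and 2.47% of the vehicle cells of the class.

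The other classes added smaller counts. Etv1 in microglia-like cells ran from 13 to 77.5 CPM in FGF1 mice (median 34.5, 45 UMIs) and from 63.3 to 105 CPM in vehicle mice (median 96.6, 98 UMIs), lower in 6 of 6 batches, and at a log2 fold change of -1.14 ± 0.293 it ranked 19 of 2676 genes without passing the threshold (edgeR FDR = 0.0914). At equal depth, 2.25% of FGF1 and 3.35% of vehicle microglia-like cells had an Etv1 UMI (exact permutation p = 0.348). Without thinning the shares were 4.51% and 7.91% (exact permutation p = 0.0108, adjusted 0.119). In microglia-like cells all 7 oligodendrocyte markers were lower in the FGF1 mean (852 to 2731 CPM summed, median 1326, against 1110 to 4542, median 2208), as were 5 of 6 OPC markers (52.2 to 98.8 CPM against 23.8 to 196) and 4 of 4 neuron markers (153 to 392 CPM against 197 to 753). The part of these cells in the Etv1 value was not tested. Etv5 there was at 38.9 to 110 CPM against 28.9 to 118 CPM (-0.38 ± 0.286, FDR = 0.644). In macrophage-like cells Etv5 was at 0 to 63.2 CPM in 5 FGF1 mice (6 UMIs) and 77.1 to 380 CPM in 4 vehicle mice (24 UMIs), untested. There 5 of 6 macrophage markers were lower in the FGF1 mean (439 to 3184 CPM summed, median 868, against 655 to 5028, median 2981), as were 6 of 6 endothelial markers (139 to 525 CPM, median 255, against 16.3 to 983, median 504), and their part in the Etv5 value was not tested. Etv1 in endothelial cells was at 33.9 ± 14.5 CPM against 43.9 ± 12.8 CPM (-0.34 ± 0.239, FDR = 0.597). Etv1 in committed precursors (1583 FGF1 and 164 vehicle cells) did not pass the filter. It was lower in 6 of 6 batches, by log2 differences of -1.81 to -0.45. Without thinning, 2.39% against 5.09% of these cells had an Etv1 UMI (exact permutation p = 0.00866, adjusted 0.119). At equal depth the shares were 0.936% and 2.44% (exact permutation p = 0.396). Macrophage Etv5 and tanycyte Etv1 were the 2 of 33 pairs in which all FGF1 mice lay below all vehicle mice, beside 0.944% of all genes tested.

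Summed over all cells of a mouse, in a comparison added after the data were seen, Etv4 and Etv5 were called lower in FGF1 mice. Etv4 ran from 3.54 to 11.6 CPM (median 6.94) against 9.29 to 18.5 CPM (12.0), at a log2 fold change of -0.95 ± 0.24 (edgeR FDR = 0.0257), and Etv5 from 18.8 to 43.7 CPM (30.6) against 41.9 to 64.8 CPM (50.6), at -0.69 ± 0.169 (FDR = 0.0226), beside 9.58% of all genes called. Both were lower in 6 of 6 batches, and the calls were lost without FGF1 mouse 21 (FDR = 0.0542 for Etv4 and 0.0512 for Etv5) or vehicle mouse 25 (0.0700 and 0.0587), that of Etv4 also without FGF1 mouse 7 (0.0547) or vehicle mouse 22 (0.0552). OPC supplied 163 of the 283 Etv4 UMIs in FGF1 mice and 333 of 559 in vehicle mice, and OPC numbered 1481 in FGF1 and 2448 in vehicle mice, against 1583 and 164 committed precursors. In the sum, the number of OPC and the level in each cannot be told apart. Etv1 was also lower, in 5 of 6 batches and without a call, at 64.9 to 135 CPM (median 102) against 99.1 to 177 CPM (143), a log2 fold change of -0.46 ± 0.165 (FDR = 0.0958). A sum over nuclei is not like for like, since 19416 of 24965 nuclei were neurons, which were taken out of the whole cells. The dissected tissue differed as well. In Day 5 nuclei both genes were lower in 2 of 2 batches. The log2 differences were -1.28 and -0.64 for Etv4 and -0.78 and -0.42 for Etv5. The sum over Day 1 nuclei had the opposite sign, with Etv4 at 20.6, 16.1 and 13.1 CPM against 6.43, 4.79 and 6.13 CPM (1.54 ± 0.28, edgeR FDR = 0.102, DESeq2 adjusted p = 0.00228). Etv5 was at 35.2, 29.1 and 33.6 CPM against 17.1, 11.3 and 15.1 CPM (1.18 ± 0.229, FDR = 0.121, DESeq2 0.00374). In this sum edgeR called 0.274% of all genes, neither Etv4 nor Etv5 among them. The share that DESeq2 called is not given here. Etv1 was at 19.8 ± 2.24 CPM against 20.4 ± 0.93 CPM there (-0.04 ± 0.20, FDR = 0.964).

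Whether the Day 5 effect differed between classes was tested within mice over 30 pairs of classes, and none passed at an adjusted p below 0.05. The nearest were Etv1 in tanycytes against OPC, where the effect was lower by 0.57 on the log2 scale (exact permutation p = 0.00216, adjusted 0.0649), and in astrocytes against tanycytes, higher by 0.50 (exact p = 0.00649, adjusted 0.0974). Whether 2 members of the same class were moved differently was tested over 15 pairs, and again none passed, with the lowest adjusted value at 0.281. In oligodendrocytes the effect on Etv1 exceeded that on Etv5 by 1.07 on the log2 scale (exact permutation p = 0.0368, adjusted 0.281). The opposite signs of Etv1 and Etv5 in that class are therefore values side by side and not a tested difference.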

How the data were processed

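Nuclei (10 mice) and whole cells (12 mice) were profiled on the 10x Chromium platform (3′ chemistry). The authors aligned reads to GRCm38 (Cell Ranger 1.2 is named in the submitters' processing notes), included introns for nuclei per the methods, and deposited whole-number UMI counts per gene and barcode, with a cell type per nucleus and a numbered cluster per cell. By the study's methods, doublets (Scrublet) and neurons were taken out of the whole cells before deposit, while nuclei had no such doublet step. The authors also deposited 2 percent values per cell, for mitochondrial and for ribosomal UMIs, and 4382 cells lie above the limit of 20% that the methods state. Of the barcodes, 318 sequences in nuclei and 1791 in cells occur in more than 1 sample. Normalized nuclei values were not used, 660 nuclei marked filtered were left out of every type, and 270 cells of clusters 18, 19 and 20 stayed unnamed. Whole-cell clusters were named "X-like" from marker genes and can differ from the study's names.

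Counts were summed per mouse and type (at least 10 cells per mouse and 2 mice per group), filtered with filterByExpr, scaled by TMM and tested without covariates in edgeR 4.0.16 (robust glmQLFit, R 4.3.3). Calls were made at a Benjamini-Hochberg FDR below 0.05 over all genes of a type. DESeq2 1.42.0 was an alternative. Levels are TMM-scaled CPM. On counts simulated from n29 on Day 1, 82% of genes changed 4-fold and 19.4% changed 2-fold were called. On counts simulated from whole-cell astrocytes, 95% changed 2-fold and 23.9% changed 1.5-fold were called. Other tests were exact permutations over mice. Members were described in each type, up to 4 called genes per list were named by size of change, and likeness used genes with at least 5 CPM in 1 class (1 gene that the rule gives for Etv1 is not reported here). Members and lists were chosen with earlier results of these data known. Replicate numbers were checked for pairing on Day 1 over 15416 genes: correlations of deviations between same-numbered mice were -0.105, -0.00778 and 0.319, so the numbers were not taken as pairs. Between mice of the same batch the correlations were -0.320, -0.0897 and -0.446, so batch mates were not shown to deviate together either. Differences within batches are therefore values and not matched controls.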

Additional observations from a re-analysis of the deposited data

Results flagged for a closer look

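Of 39 groups of 6 mice tested for a mouse far from the others, 2 held one by Dixon's ratio, and chance gives about 1 in 20. Etv1 in ependymal cells was at 39.8 CPM in FGF1 mouse 6 and at 8.45 to 14.4 CPM in the other FGF1 mice (ratio 0.81), and Etv5 in oligodendrocytes was at 24.1 CPM in FGF1 mouse 28 and at 6.63 to 12.4 CPM in the others (ratio 0.67).

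Of 36 pairs of member and type measured in nuclei on both days, all neurons summed included, 7 had every FGF1 mouse above every vehicle mouse on Day 1 and below on Day 5. Of the 36, 9 passed the count filter on both days, and 4 of these 9 had this order, as did 0.695% of all genes tested on both days in a type and 0.52% in all neurons summed. The sum of all neurons includes n29, Glu5 and the unmapped neurons, so these pairs share nuclei, and Day 5 rests on 2 mice a group, where 19.0% of all genes tested lay below without overlap. The Day 1 effect exceeded the Day 5 effect on the log2 scale by 3.93 for Etv4 and 1.82 for Etv5 in astrocytes, by 4.47 for Etv4 in n29.Nr5a1/Adcyap1, by 2.62 for Etv4 in unmapped neurons, and by 2.58 for Etv4 and 1.86 for Etv5 in all neurons summed. The interaction test in edgeR gave FDRs of 0.359, 0.558, 0.735, 1.00, 0.999 and 0.999 in that order, so none of the differences passed. Etv5 in Glu5, the remaining pair, could not be tested.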

How the results depend on the processing

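On Day 1 the main count of 1 called pair of member and type became 0 with batch as a term, 0 with nuclei thinned to 1350 UMIs (2 pairs tested), 0 with all neuron types summed, 0 with all nuclei of a mouse summed and 4 without the low-count filter (54 pairs tested), and was 0 to 1 with each mouse left out. The replicate block left 1 call, Etv5 in n29 at a log2 fold change of 2.60 (FDR = 0.0305), and the same numbers were not shown to pair the mice. The 2 calls in whole-cell classes became 1 by DESeq2 and 1 without cells above the limit of 20% mitochondrial or ribosomal UMIs, and 0 to 3 with each mouse left out. The single call in whole-cell clusters became 2 with batch as a term, which added Etv5 in cluster 1 (edgeR FDR = 0.0278), and 0 to 4 with each mouse left out. Counts of 0 stayed at 0 with each mouse left out for Day 5 nuclei, for the effect by day and for one type against another, and for one member against another they were 0 to 1 (the call came without FGF1 mouse 21). No named value changed its sign under any alternative run, and scaling by RLE size factors or a minimum of 20 cells moved no count past 1.5 times. The share of all genes called under each alternative is not given here, so these counts stand beside the main count only. Where a cause is not named, the cause was not tested. Leaving out 1 mouse of 2 or 3 leaves few degrees of freedom, and a lone mouse is then assumed to vary like the other group. Of 54 pairs on Day 1, 46 did not pass the count filter.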
